A study of Mus musculus with 20 samples.

Results

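The genes described here belong to the signalling of transforming growth factor beta (TGF-beta) and bone morphogenetic proteins (BMP). They are the ligand Tgfb1, the receptors Tgfbr1 and Tgfbr2, the signal carrier Smad3, the inhibitory Smad6 and Smad7, the secreted matrix protein gene Tgfbi, and Id1, Id2 and Id3. The 10 genes were taken by symbol from 50686 genes in the deposited count table, and all 10 passed the filter on low counts. The choice was made with measured values known: Tgfbi, Id1 and Smad6 were selected on their lower values in RANKL-treated than in untreated cells. Their RNA levels come from sequencing of what the labels' cell line field and protocol name as the RAW264.7 line, although the source field reads bone marrow; these are mouse cells of monocyte and macrophage type that can form osteoclasts, the cells that resorb bone. Cells received the osteoclast-inducing cytokine RANKL (50 ng per ml) together with the BET bromodomain inhibitor I-BET (500 nM), I-BET alone at 500 nM, or RANKL alone at 50 ng per ml, each for 4, 14 or 24 hours. Untreated cells were taken at hour 0. These 10 groups held 2 libraries each, 20 in all, all labelled as this 1 cell line, with no transgene or deletion named in the labels. The labels call the 2 libraries replicates without naming separate cultures, so p-values measure only the spread between these libraries. Untreated cells were taken at hour 0 alone, so treatment and time in culture cannot be told apart in comparisons with them. The series asks what BET inhibition, alone or with RANKL, does to gene expression in early osteoclast formation.

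All positions are on mm10 (GRCm38) as the deposited table gives them, and each spans the whole gene with its exons, introns and UTRs. Tgfb1 (ENSMUSG00000002603) lies at chr7:25687002-25705077 on the plus strand. Tgfbr1 (ENSMUSG00000007613) lies at chr4:47353222-47414931, plus strand, and Tgfbr2 (ENSMUSG00000032440) at chr9:116087698-116175363, minus strand. Smad3 (ENSMUSG00000032402) spans chr9:63646767-63757994 and Smad6 (ENSMUSG00000036867) spans chr9:63953076-64022059, both on the minus strand of the same chromosome. Smad7 (ENSMUSG00000025880) is at chr18:75367529-75395935, plus strand. Tgfbi (ENSMUSG00000035493) is at chr13:56609603-56639339, plus strand. Id1 (ENSMUSG00000042745) is at chr2:152736251-152737410, plus strand, Id2 (ENSMUSG00000020644) at chr12:25093801-25096092, minus strand, and Id3 (ENSMUSG00000007872) at chr4:136143497-136145755, plus strand. No exon of the 10 genes shares a base with an exon of another gene in GENCODE M21.

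TGF-beta binds the type II receptor, which activates the type I receptor, and this phosphorylates SMAD2 and SMAD3, which enter the nucleus with SMAD4. BMP ligands act through other type I receptors and SMAD1, SMAD5 and SMAD8, and ID genes are well-known targets of that branch. SMAD6 and SMAD7 are themselves induced by the pathway and inhibit it. ID proteins bind E proteins and related helix-loop-helix factors and keep them from binding DNA. In cells of the osteoclast lineage TGF-beta is known to act on differentiation both ways, depending on the cells present, and ID proteins have been described as brakes on osteoclast formation. BET proteins bind acetylated histones and help transcription start and elongate.

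The following upstream sequences are shown because they belong to 2 of the 4 pairs of members with the highest correlation of levels over the groups, Tgfbi with Tgfbr1 and Smad3 with Tgfbr2, each a receptor gene and another gene of the TGF-beta branch. They are from RefSeq on GRCm38.p6, and each is written 5′ to 3′ on the strand of its gene, from the 250 bases before the RefSeq start with any base annotated as exon left out. Capitals mark matches on either strand to CAGAC or its reverse complement GTCTG, a SMAD-binding element, and to GGCGCC, a GC-rich element bound by BMP SMADs. The E-box CACGTG and the AP-1 element TGANTCA, also searched on both strands, had no match in these 4 windows. No match overlapped another.
Tgfbi, chr13:56609336-56609522, plus strand: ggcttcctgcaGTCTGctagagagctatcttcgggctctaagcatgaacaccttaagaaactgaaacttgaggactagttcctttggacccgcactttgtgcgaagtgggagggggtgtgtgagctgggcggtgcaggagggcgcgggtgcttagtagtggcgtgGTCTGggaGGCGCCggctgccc
Tgfbr1, chr4:47352972-47353221, plus strand: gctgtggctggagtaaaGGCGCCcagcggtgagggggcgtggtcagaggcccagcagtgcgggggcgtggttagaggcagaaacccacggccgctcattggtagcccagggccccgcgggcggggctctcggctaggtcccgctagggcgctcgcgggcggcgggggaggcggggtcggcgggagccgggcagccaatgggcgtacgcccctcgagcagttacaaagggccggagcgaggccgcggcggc
Smad3, chr9:63757995-63758244, minus strand: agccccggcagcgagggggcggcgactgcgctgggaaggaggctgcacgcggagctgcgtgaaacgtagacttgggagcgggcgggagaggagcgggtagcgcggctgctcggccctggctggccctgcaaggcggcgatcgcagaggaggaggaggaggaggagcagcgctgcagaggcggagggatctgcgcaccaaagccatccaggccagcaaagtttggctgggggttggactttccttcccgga
Tgfbr2, chr9:116175364-116175613, minus strand: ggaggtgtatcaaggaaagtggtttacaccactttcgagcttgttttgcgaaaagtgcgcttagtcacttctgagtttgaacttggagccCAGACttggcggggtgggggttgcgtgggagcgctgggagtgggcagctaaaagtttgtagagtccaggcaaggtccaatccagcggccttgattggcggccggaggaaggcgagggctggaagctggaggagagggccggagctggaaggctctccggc

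The Tgfbi window held GTCTG 2 times and GGCGCC 1 time, and its second GTCTG began 85 bases and its GGCGCC 77 bases before the start. The Tgfbr1 window shown held GGCGCC 1 time, while a second RefSeq start of Tgfbr1 has a window, at chr4:47385966-47386215 and not printed, that held CAGAC 1 time; the Tgfbr2 window held CAGAC 1 time and the Smad3 window neither. Of 32817 RefSeq windows of 250 bases, 42.2% held CAGAC, 9.6% GGCGCC, 6.0% CACGTG and 6.8% TGANTCA, so a CAGAC match is common. These matches describe the letters and are no evidence of binding. RefSeq windows were found for 8 of the 10 genes.

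Total counts per library ran from 19051780 in untreated library 1 to 62313792 in I-BET library 1 of 24 hours. Untreated library 2 stood apart, with 11.38% of its counts in its 5 highest genes, against 3.54% to 6.09% in the other libraries, and comparisons with untreated cells are given below with what changed when it was left out. The cell type was checked on marker lists, as summed CPM, counts scaled to a common library size. The 9 macrophage markers summed to 4450 to 5200 CPM with RANKL plus I-BET at 24 hours, 6430 to 6440 with I-BET, 2540 to 3120 with RANKL and 8610 to 9990 in untreated cells. The 10 osteoclast markers summed to 119 to 159, 119 to 147, 1250 to 1650 and 419 to 727 CPM in the same groups. In these 2 lists, 1 macrophage marker and 3 osteoclast markers were under 1 CPM in every library. Markers of endothelial cells and of lymphocytes were each under 1 CPM in every library, as were 8 of 9 stromal and osteoblast markers, with Col1a2, Col3a1, Cd8a and Ms4a1 among those at 0. Both sums thus differed between the treatments at 24 hours, the macrophage sum being lowest and the osteoclast sum highest with RANKL alone, and their part in the results was not tested. In bulk RNA, fewer cells of a type and less RNA per cell cannot be told apart.

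Across the 10 genes, 3 kinds of course were seen in the levels by hour. Id1, Id3 and Smad6 were lowest with RANKL alone at 24 hours and stood higher when I-BET was present. Tgfbr2 was lower with RANKL alone at every hour than in untreated cells and in the groups with I-BET, and Smad3 was so from 14 hours on. Tgfbi and Tgfbr1 were low in every treated group at 14 and 24 hours. Levels are given as RPKM, read counts scaled by gene length and library total, and fold changes as log2 values fitted on counts with their standard error (SE).

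**Figure D1:**
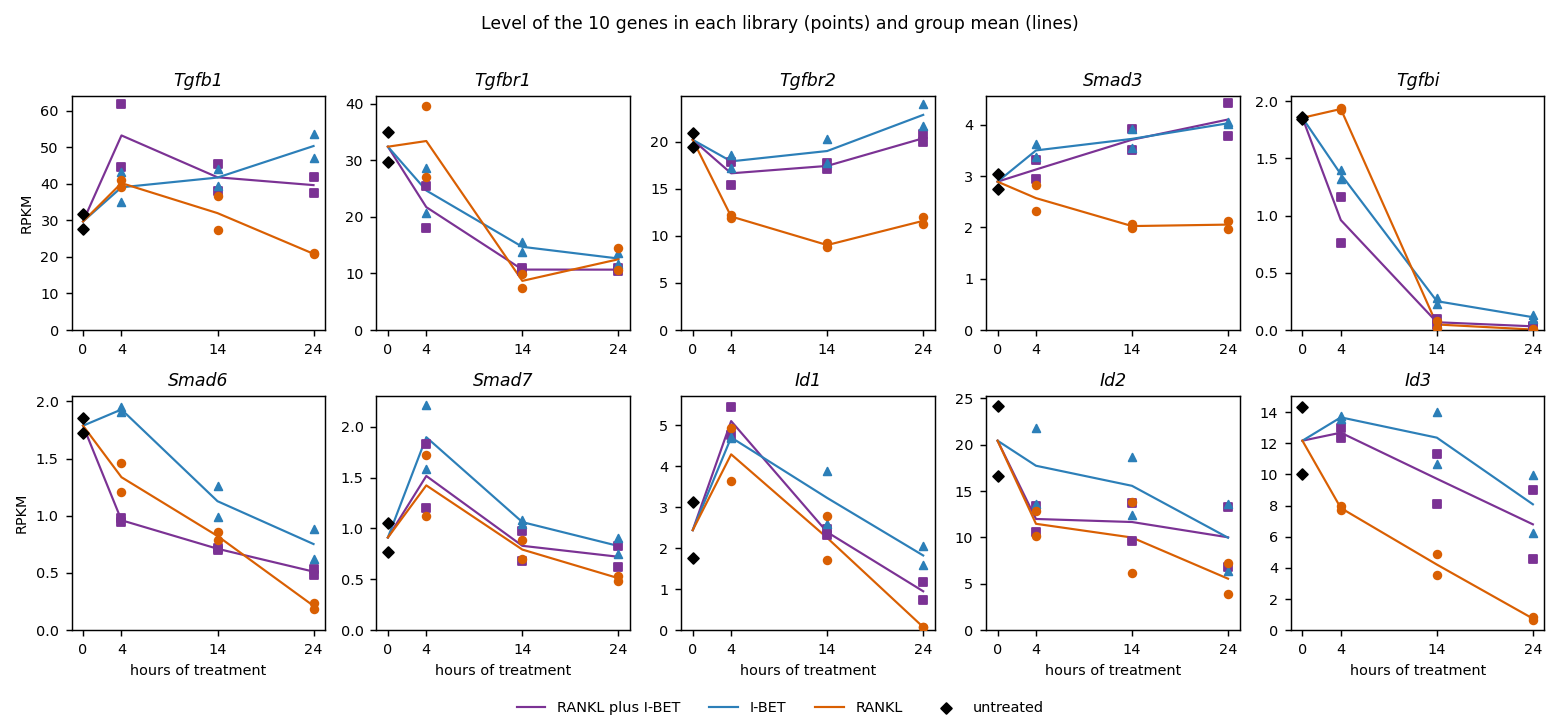
RPKM (vertical axis, from 0) of each of the 10 genes against hours of treatment; points are libraries, 2 per group, lines join group means, and untreated cells stand at hour 0. Id3 stands at 0.668 and 0.819 RPKM with RANKL at 24 hours, below all other libraries, and Tgfbi is at most 0.279 RPKM in every treated library from 14 hours on.

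Tgfb1 encodes the ligand TGF-beta 1. It had 31.7 and 27.7 RPKM in untreated cells. At 4 hours it had 44.6 and 61.8 RPKM with RANKL plus I-BET, 34.9 and 43.1 with I-BET and 39.2 and 41.1 with RANKL. By 24 hours the values were 41.7 and 37.5 with RANKL plus I-BET, 47.1 and 53.5 with I-BET, and 20.7 and 20.98 with RANKL. The RANKL libraries of 24 hours were thus the lowest of the 20 for this gene, and no library of the other treatments overlapped them. With I-BET added to RANKL, Tgfb1 was 1.86-fold higher at 24 hours (log2 fold change 0.89, SE 0.187, adjusted p = 0.00262 by edgeR). I-BET alone at 24 hours gave a log2 fold change of 0.69 (SE 0.187, adjusted p = 0.0204) over untreated cells, a call lost without I-BET library 2 (adjusted p = 0.138), untreated library 1 (0.101) or untreated library 2 (0.105). At 4 and 14 hours the log2 differences between RANKL plus I-BET and RANKL, 0.39 and 0.34, did not pass the test, but did so with the library number in the model (adjusted p = 0.0306 and 0.0358).

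Tgfbr2 encodes the type II receptor, which binds the ligand. Its level was 20.9 and 19.4 RPKM in untreated cells. At 4 hours the values were 15.4 and 17.9 RPKM with RANKL plus I-BET, 17.2 and 18.6 with I-BET, and 11.8 and 12.3 with RANKL. At 14 hours they were 17.1 and 17.8, 20.3 and 17.7, and 8.78 and 9.26 in the same groups. At every hour both RANKL libraries lay below all libraries of the other groups, and at 24 hours they were at 11.2 and 11.98 RPKM, against 20.8 and 19.9 with I-BET added and 24.0 and 21.6 with I-BET alone. Adding I-BET to RANKL raised Tgfbr2 by a log2 fold change of 0.45 at 4 hours (SE 0.105, adjusted p = 0.0137), 0.90 at 14 hours (SE 0.106, adjusted p = 3.83e-05) and 0.78 at 24 hours (SE 0.106, adjusted p = 8.9e-05). The 4-hour call was lost without RANKL library 1 (adjusted p = 0.131), RANKL library 2 (0.0536) or RANKL plus I-BET library 2 (0.181), and with only that comparison's libraries in the fit (0.21). The later calls held with each library left out.

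Tgfbr1 encodes the type I receptor kinase. It had 35.0 and 29.7 RPKM in untreated cells, and at 4 hours 25.4 and 17.96 with RANKL plus I-BET, 28.6 and 20.6 with I-BET, and 39.6 and 27.1 with RANKL. At 14 hours it had 10.4 and 11.0 RPKM with RANKL plus I-BET, 15.6 and 13.8 with I-BET, and 9.98 and 7.4 with RANKL, and at 24 hours 10.9 and 10.4, 13.6 and 11.7, and 14.4 and 10.6. Every treated library of 14 and 24 hours lay below every untreated one, whichever agent the cells received. I-BET alone gave log2 fold changes of -1.23 at 14 hours (SE 0.206, adjusted p = 0.00119) and -1.43 at 24 hours (SE 0.208, adjusted p = 0.000268) against untreated cells. Between 24 and 4 hours Tgfbr1 fell by 1.01 on the log2 scale with RANKL plus I-BET (SE 0.206, adjusted p = 0.00409) and by 0.89 with I-BET (SE 0.205, adjusted p = 0.0132). The first of these was lost without RANKL plus I-BET library 1 of 4 hours (adjusted p = 0.0526), the second without I-BET library 1 of 4 hours (0.132) or I-BET library 2 of 24 hours (0.12). At no hour did RANKL plus I-BET differ from RANKL at the threshold, with log2 fold changes of -0.64, 0.26 and -0.26 (SE 0.204 to 0.205); the 4-hour value passed with the library number in the model (adjusted p = 0.00201), without RANKL library 2 (0.0421) or RANKL plus I-BET library 1 (0.0491), in DESeq2 (0.0223) and without the filter (0.000538).

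Smad3 carries the TGF-beta signal to the nucleus. Untreated cells had 3.04 and 2.74 RPKM. At 4 hours the values were 3.31 and 2.95 with RANKL plus I-BET, 3.63 and 3.37 with I-BET, and 2.82 and 2.32 with RANKL. At 24 hours they were 4.43 and 3.77, 4.01 and 4.05, and 1.98 and 2.13. The RANKL libraries of 24 hours lay below all untreated and I-BET-treated libraries, and those of 14 hours (1.99 and 2.07, against 3.91 and 3.5 with I-BET added) did likewise. With I-BET added to RANKL, Smad3 rose 1.77-fold at 14 hours (log2 fold change 0.82, SE 0.113, adjusted p = 0.000149) and 1.95-fold at 24 hours (0.96, SE 0.113, adjusted p = 2.69e-05), both held with each library left out. The log2 increase with I-BET alone over untreated cells at 24 hours was 0.40 (SE 0.113, adjusted p = 0.0242). That call was lost in all 4 fits with 1 library left out, at adjusted p of 0.079 without I-BET library 1, 0.115 without I-BET library 2, 0.128 without untreated library 1 and 0.115 without untreated library 2, and also without the filter on low counts (0.165) and with only that comparison's libraries (0.11).

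Tgfbi encodes a secreted adhesion protein induced by TGF-beta. It was low in this line, with 95 and 199 counts in untreated cells (1.86 and 1.85 RPKM). With RANKL plus I-BET it had 105 and 131 counts at 4 hours, 3 and 11 at 14 hours and 4 and 5 at 24 hours. With I-BET the counts were 156 and 156, 37 and 33, and 22 and 12 at the same hours. RANKL alone left 290 and 234 counts at 4 hours, 11 and 2 at 14 hours, and 0 and 1 at 24 hours. At 4 hours the RANKL libraries were still at 1.92 and 1.95 RPKM, so the low RANKL values, on which the gene was selected, belong to 14 and 24 hours. Between 24 and 4 hours, in libraries that the selection did not use, Tgfbi fell by 4.82 on the log2 scale with RANKL plus I-BET (SE 0.506, adjusted p = 2.97e-05) and by 3.50 with I-BET alone (SE 0.424, adjusted p = 0.000184). Both calls held with each library left out. I-BET alone stood below untreated cells by log2 fold changes of -2.98 at 14 hours (SE 0.398) and -4.10 at 24 hours (SE 0.43), given without a test because the selection used the untreated libraries. At 24 hours, for RANKL plus I-BET against RANKL, the 9 counts against 1 gave a ratio of 6.99 with a 95% counting interval of 0.968 to 306, so no difference was detectable at this depth. RANKL plus I-BET against I-BET uses no library of the selection. It gave log2 fold changes of -1.72 at 14 hours (SE 0.507) and -1.76 at 24 hours (SE 0.58). Neither passed by edgeR (adjusted p = 0.179 and 0.495). The libraries of the 2 groups did not overlap at either hour. At 24 hours the same held for Id1, Smad6, Tgfb1, Tgfbr1 and Tgfbr2, none of them called, and not for Id2, Id3, Smad3 and Smad7. With 2 libraries per group, a lack of overlap is therefore no sign of a difference by itself. The 14-hour value passed with the library number in the model (adjusted p = 0.0263), in DESeq2 (0.0324) and without the filter (0.0116).

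Smad6 encodes an inhibitory SMAD that acts mainly on the BMP branch. It had 1.85 and 1.72 RPKM in untreated cells. At 4 hours it had 0.941 and 0.98 RPKM with RANKL plus I-BET, 1.9 and 1.95 with I-BET, and 1.47 and 1.21 with RANKL. At 24 hours it had 0.537 and 0.485, 0.881 and 0.624, and 0.241 and 0.183. At 4 hours the RANKL plus I-BET libraries were thus below those of either agent alone, and at 24 hours the RANKL libraries were the lowest. RANKL plus I-BET against I-BET, which uses no library of the selection, gave a fall of 0.94 on the log2 scale at 4 hours (SE 0.178, adjusted p = 0.0363). This call was lost in all 4 fits with 1 library left out, at adjusted p of 0.308 and 0.229 without RANKL plus I-BET library 1 and 2 and of 0.21 and 0.312 without I-BET library 1 and 2, and in limma on RPKM plus 0.1 (0.0703), without the filter (0.0599) and with only that comparison's libraries (0.449); with the library number in the model it was 0.00178. The 4-hour fit on that comparison's own libraries called 0 of its 14478 genes, so the loss there is not particular to Smad6. At 14 hours the log2 fold change was -0.62 (SE 0.185, adjusted p = 0.186, and 0.0443 with the library number). Between 24 and 4 hours Smad6 fell by 0.90 with RANKL plus I-BET (SE 0.186, adjusted p = 0.00442) and by 1.28 with I-BET (SE 0.18, adjusted p = 0.000513); the first was lost without RANKL plus I-BET library 2 of 24 hours (0.0554) and with only that comparison's libraries (0.0584).

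In RANKL plus I-BET against RANKL, Smad6 had log2 fold changes of -0.49, -0.26 and 1.24 at 4, 14 and 24 hours (SE 0.179, 0.186 and 0.208), so its direction at 24 hours was opposite to that at 4 hours. In I-BET against untreated cells it had -0.04, -0.76 and -1.32 (SE 0.177, 0.179 and 0.182). These are descriptions, since they share the RANKL or the untreated libraries with the selection. Smad7, the inhibitory SMAD of both branches, was lower than Smad6 in untreated cells, at 1.06 and 0.765 RPKM. Its values at 4 hours were 1.83 and 1.2 RPKM with RANKL plus I-BET, 2.21 and 1.58 with I-BET, and 1.72 and 1.12 with RANKL, each above both untreated libraries. From 14 hours on it ran between 0.486 and 1.08 RPKM in all treated libraries. With I-BET at 4 hours Smad7 was 1.9-fold above untreated cells of hour 0 (log2 fold change 0.93, SE 0.261, adjusted p = 0.0378 by edgeR). Treatment and time in culture cannot be told apart in this value. That call was lost without I-BET library 1 (adjusted p = 0.233) or 2 (0.0548), without untreated library 1 (0.0925) or 2 (0.261), and with only that comparison's libraries (0.0601). From 4 to 24 hours Smad7 fell by 1.06 on the log2 scale with RANKL plus I-BET (SE 0.257, adjusted p = 0.0126) and by 1.12 with I-BET (SE 0.255, adjusted p = 0.0121). The first was lost without RANKL plus I-BET library 1 of 4 hours (0.147) or of 24 hours (0.128), the second without I-BET library 1 of 4 hours (0.115) or library 2 of 24 hours (0.115).

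Id1 had 3.12 and 1.76 RPKM in untreated cells, from 69 and 82 counts. At 4 hours it was above both untreated libraries in every treated group, at 4.77 and 5.43 RPKM with RANKL plus I-BET, 4.69 and 4.71 with I-BET, and 4.93 and 3.65 with RANKL. At 14 hours it had 2.46 and 2.33, 3.87 and 2.58, and 2.79 and 1.71 RPKM. At 24 hours it had 1.163 and 0.734 RPKM with RANKL plus I-BET (65 and 46 counts), 2.05 and 1.6 with I-BET (148 and 89 counts), and 0.0645 and 0.0843 with RANKL (3 and 4 counts). The low RANKL level on which Id1 was selected thus belonged to 24 hours, and the RANKL libraries of 4 hours lay above both untreated ones. As a description, Id1 was 12.3-fold higher in counts with I-BET added to RANKL at 24 hours (111 counts against 7). The fitted log2 fold changes at 4, 14 and 24 hours were 0.23, 0.05 and 3.59 (SE 0.27, 0.285 and 0.458). No test is given for these because of the shared RANKL libraries. From 4 to 24 hours Id1 fell by 2.42 on the log2 scale with RANKL plus I-BET (SE 0.296, adjusted p = 9.88e-05), held with each library left out. With I-BET alone the fall was 1.29 (SE 0.28, adjusted p = 0.00938), lost without I-BET library 2 of 4 hours (0.0519) or of 24 hours (0.0998). RANKL plus I-BET had less Id1 than I-BET alone at 24 hours by a log2 difference of -0.95 (SE 0.296), which did not pass (adjusted p = 0.434, and 0.0258 with the library number in the model).

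Id3 was the member with the smallest adjusted p when I-BET was added to RANKL. It had 14.3 and 10.01 RPKM in untreated cells. At 4 hours it had 12.37 and 13 RPKM with RANKL plus I-BET, 13.8 and 13.6 with I-BET, and 7.74 and 7.95 with RANKL. At 14 hours it had 11.3 and 8.13, 14.0 and 10.7, and 4.88 and 3.55, and at 24 hours 9.0 and 4.59, 9.94 and 6.23, and 0.668 and 0.819. At each hour the RANKL libraries lay below all libraries with I-BET of that hour. With I-BET added to RANKL, Id3 was 2.23-fold higher at 14 hours (log2 fold change 1.156, SE 0.285, adjusted p = 0.00934) and 8.87-fold higher at 24 hours (3.15, SE 0.329, adjusted p = 9.31e-06). The 14-hour call was lost without RANKL library 2 (adjusted p = 0.0813) or RANKL plus I-BET library 1 (0.0845), and the 24-hour call held with each library left out. The 4-hour log2 value of 0.67 (SE 0.278) passed with the library number in the model (adjusted p = 0.0307). From 4 to 24 hours Id3 fell by 0.90 with RANKL plus I-BET (SE 0.279, adjusted p = 0.0445). That call was lost without RANKL plus I-BET library 2 of 24 hours (0.372), library 1 of 4 hours (0.109) or library 2 of 4 hours (0.157), and with only that comparison's libraries (0.0819).

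Id2 was the highest of the ID genes in untreated cells, at 24.2 and 16.7 RPKM. Across the treated groups it ran between 6.36 and 21.8 RPKM where I-BET was present and between 3.85 and 13.8 with RANKL alone. Library 1 was above library 2 in all 10 groups, and at every hour its RANKL plus I-BET libraries overlapped with the RANKL ones. At 24 hours the log2 fold change of 0.82 there (SE 0.45) did not pass (adjusted p = 0.206) but did with the library number in the model (0.00338) or without the filter on low counts (9.31e-05). In I-BET against untreated cells at 24 hours, -1.10 (SE 0.442) likewise passed only with the library number (0.000155) or without the filter on low counts (5.35e-07) among the alternatives run.

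**Figure D2:**
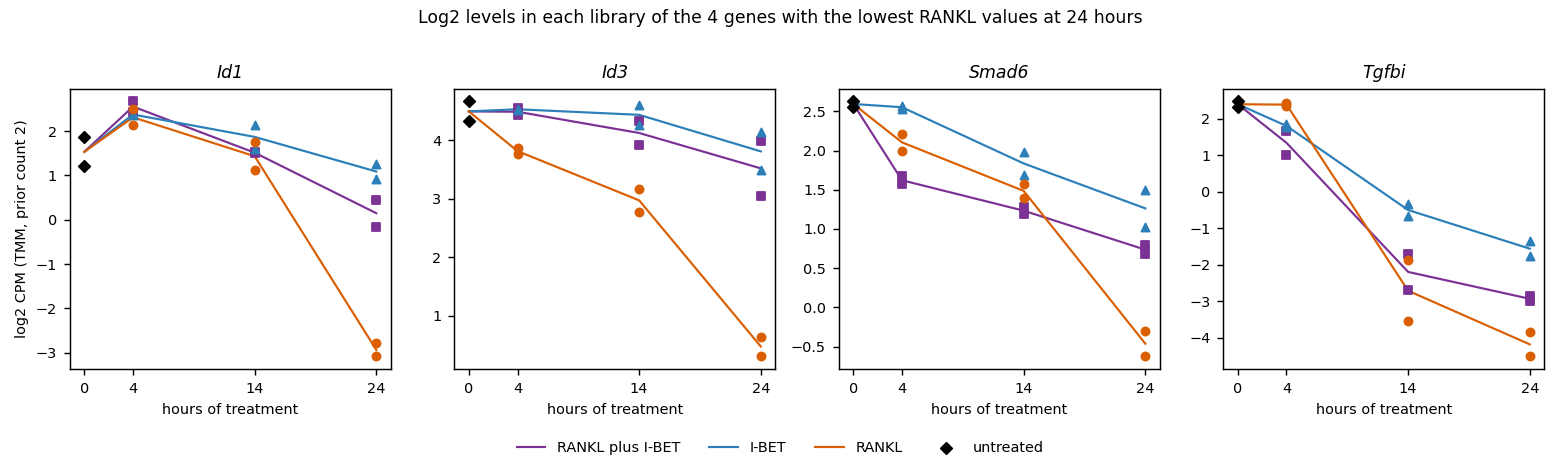
Log2 CPM (vertical axis; TMM-scaled, prior count 2) of Id1, Id3, Smad6 and Tgfbi against hours of treatment; points are libraries, lines join group means, and untreated cells stand at hour 0. The RANKL points drop away from those with I-BET at 24 hours for Id1, Id3 and Smad6, whereas for Tgfbi all treated groups are low from 14 hours on, down to 0 and 1 counts with RANKL at 24 hours.

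Counted over the members, adding I-BET to RANKL changed 1 of 10 at 4 hours, where 11.4% of all tested genes were called, 3 at 14 hours (22.1% of all genes) and 6 at 24 hours (26.8%), and all of these were higher. Called at 24 hours were Id1, Id3, Smad3, Smad6, Tgfb1 and Tgfbr2. Of the 7 members outside the selection on RANKL values, 4 were among them, and Id1 and Smad6 were selected for low RANKL values, so their calls are not independent of it. The median log2 fold change of the members was 0.15, 0.30 and 0.93 at the 3 hours, against 0.001, -0.033 and -0.054 over all genes. These medians and the counts that follow include Tgfbi, Id1 and Smad6, selected on the RANKL libraries, so they are not independent of the selection. With the library number in the model the counts were 7 at 4 hours (28.1% of all genes), 4 at 14 hours (40.2%) and 7 at 24 hours (46.6%). Of those at 4 hours, Id3, Smad3, Tgfb1 and Tgfbr2 were higher. Smad6 (log2 -0.495), Tgfbr1 (-0.637) and Tgfbi (-1.043) were lower. Those at 14 and 24 hours were all higher. The change from 4 to 24 hours was itself called for 4 members, Id1, Id3, Smad3 and Smad6 (7.28% of all genes), and for 7 with the library number (21.9%). For Id3 this difference was 2.48 on the log2 scale (SE 0.426, adjusted p = 0.00271) and for Smad3 0.70 (SE 0.159, adjusted p = 0.0154).

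Smad3's difference was lost without RANKL library 1 of 24 hours (adjusted p = 0.0677), RANKL library 1 of 4 hours (0.0724), RANKL plus I-BET library 1 of 24 hours (0.0801) or RANKL plus I-BET library 2 of 4 hours (0.0641), without the filter (0.0778) and with only those libraries (0.128). RANKL plus I-BET against I-BET alone asks what RANKL did in cells that had the inhibitor. It called 1 of 10 members at 4 hours, Smad6 (0.517% of all genes), 0 at 14 hours (0.904%) and 0 at 24 hours (0.262%) by edgeR. At an unadjusted p under 0.05 there were 2, 2 and 3 members, DESeq2 called 1, 1 and 0, and limma on RPKM plus 1 called 1, 0 and 0. With the library number in the model, 2 members passed at 4 hours (3.07% of all genes), 2 at 14 hours (6.58%) and 1 at 24 hours (2.95%). The member medians were -0.11, -0.35 and -0.25, against 0.011, -0.005 and 0.00 over all genes. Between 24 and 4 hours this response differed for 0 members by edgeR (0.156% of all genes), for 2 at an unadjusted p under 0.05, for 0 by DESeq2 and by limma on RPKM plus 1, and for 2 with the library number (2.73%), Tgfb1 (adjusted p = 0.0143) and Id1 (0.0406).

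I-BET alone against untreated cells called 1 member at 4 hours (10.5% of all genes), Smad7. It called 3 at 14 hours (13.7%), all lower, and 5 at 24 hours (17.7%), with Smad3 and Tgfb1 higher and Smad6, Tgfbr1 and Tgfbi lower. Of these, Smad6 and Tgfbi were selected with the untreated libraries, which leaves 1 call among the 7 others at 14 hours and 3 at 24 hours. With the library number the counts were 4 (29.0% of all genes), 5 (29.8%) and 7 (36.2%). Member medians were -0.01, -0.12 and -0.55, against 0.006, 0.02 and 0.018 over all genes. Both these counts and these medians include Tgfbi, Id1 and Smad6, selected with the untreated libraries, so they are not independent of the selection. The calls of Tgfbr1 at 14 and 24 hours held with each library left out. Without untreated library 2 the counts were 0, 2 and 3 at the 3 hours, and the members' log2 fold changes moved by at most 0.31.

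From 4 to 24 hours, RANKL plus I-BET called 7 members (15.1% of all genes), Smad3 higher and Id1, Id3, Smad6, Smad7, Tgfbr1 and Tgfbi lower. I-BET alone called 6 (10.4%), Tgfbr2 higher and Id1, Smad6, Smad7, Tgfbr1 and Tgfbi lower. With the library number 9 passed with both agents (36.1% of all genes) and 10 with I-BET (30.6%). The 2 higher calls were the least steady: Tgfbr2 with I-BET (log2 0.42, SE 0.105, adjusted p = 0.0202) was lost without I-BET library 1 (0.141) or 2 (0.0661) of 4 hours or library 1 (0.141) or 2 (0.0537) of 24 hours and with only those libraries (0.132), and Smad3 with both agents (log2 0.40, SE 0.112, adjusted p = 0.027) without RANKL plus I-BET library 1 (0.0677) or 2 (0.157) of 4 hours or library 1 of 24 hours (0.211), without the filter (0.174), with only those libraries (0.165) and in limma on RPKM plus 0.1 (0.0502).

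**Figure D3:**
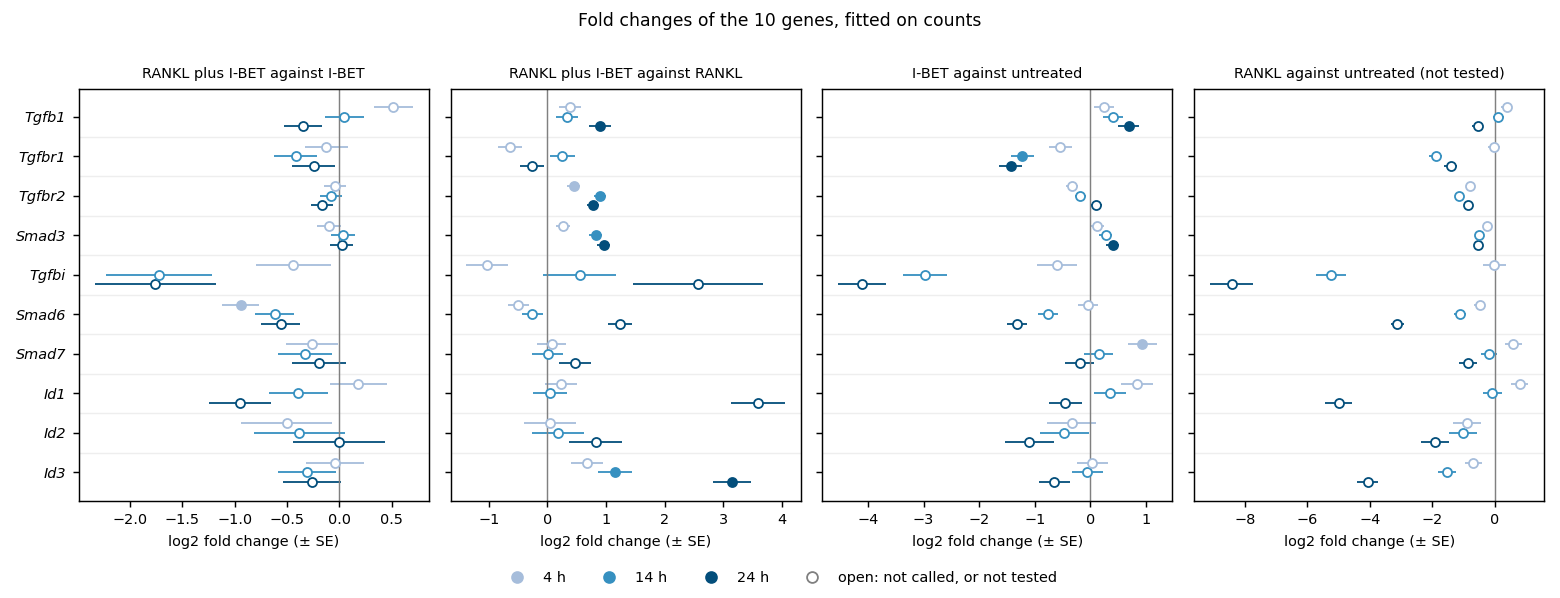
Log2 fold changes fitted on counts (horizontal axis, scale set per panel) of the 10 genes in 4 comparisons at 4, 14 and 24 hours; bars are 1 SE and filled points passed the test at an adjusted p of 0.05, and Tgfbi, Id1 and Smad6 are drawn open, without a test, where a comparison shares RANKL or untreated libraries with the selection. In the second panel, Id1 and Id3 at 24 hours stand farthest to the right at 3.59 and 3.15; RANKL against untreated is drawn without a test.

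RANKL against untreated cells, the contrast used for the selection, is given as values only. The log2 fold changes at 4, 14 and 24 hours were 0.79, -0.08 and -4.99 for Id1, -0.69, -1.52 and -4.06 for Id3, and -0.49, -1.12 and -3.12 for Smad6. Id2 had -0.89, -1.03 and -1.92, Smad3 -0.24, -0.51 and -0.54, Smad7 0.59, -0.19 and -0.86, Tgfb1 0.37, 0.11 and -0.55, Tgfbr1 -0.03, -1.90 and -1.42, and Tgfbr2 -0.81, -1.16 and -0.85. Tgfbi had -0.02, -5.25 and -8.42, the last from 1 count against 294. At 24 hours all 10 values were below 0, at 14 hours 9 and at 4 hours 7. The medians were -1.67, -1.07 and -0.13, against 0.046, 0.027 and 0.014 over all genes. Tgfbi, Id1 and Smad6 are among the values, chosen for their fall in this contrast, so these counts and medians are in part set by the choice. The Id2 value of 14 hours lay between -1.69 and -0.59 with 1 library left out. Without untreated library 2 the values moved by at most 0.33, with Id1 moving most, to 0.47, -0.40 and -5.32, and Tgfbi at 4 hours, -0.02, changed sign to 0.07.

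The likeness of the members over the 10 groups was described by Pearson's r of group means of log2 CPM. Highest were Id2 with Smad6 (0.93), Id1 with Id3 (0.92), Tgfbr1 with Tgfbi (0.92) and Smad3 with Tgfbr2 (0.90). Over 45 pairs the median r was 0.64, 11 pairs were above 0.8, and 1 was negative, Smad3 with Tgfbr1 (-0.08). The points share libraries and treatments, and 10 groups are few. Among 9450 genes with a mean of at least 5 CPM, those most like Tgfbi were Mef2a (0.99), Cadm1 (0.99) and Trem2 (0.988). Those most like Id1 were Slc39a3 (0.97), Nfya (0.961) and Ptprs (0.954), and those most like Smad6 were Dapk1 (0.963), Slc2a9 (0.955) and Rps6ka4 (0.945).

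**Figure D4:**
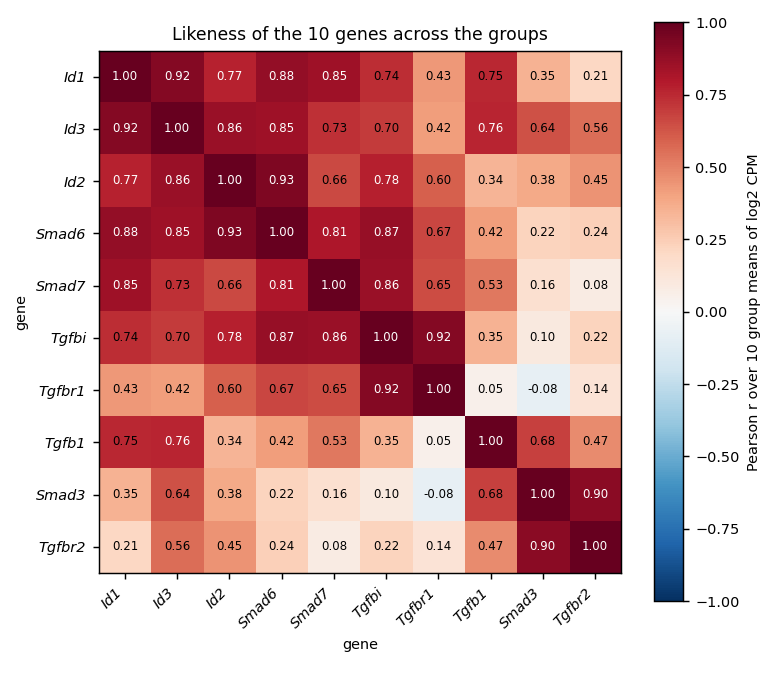
Pearson's r between the 10 genes over the 10 group means of log2 CPM, with genes on both axes and colour and number giving r. The ID genes with Smad6 form 1 block of high values (0.77 to 0.93), and Smad3 with Tgfbr2 (0.90) stands apart from Tgfbr1 with Tgfbi (0.92). Values as high also lie outside that block, such as Smad6 with Tgfbi (0.87), Smad7 with Tgfbi (0.86) and Id1 with Smad7 (0.85).

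The rest of the pathway was taken from 6 lists of 88 symbols, of which 87 genes were found, Ccn2 being another name of Ctgf, and 48 passed the filter. When I-BET was added to RANKL, 13 of the 48 were called at 4 hours (4 higher, 9 lower; 27.1%, against 11.4% of all tested genes), 16 at 14 hours (2 higher, 14 lower; 33.3% against 22.1%) and 19 at 24 hours (6 higher, 13 lower; 39.6% against 26.8%). Of all tested genes, 791 were called higher and 1037 lower at 4 hours, 1737 and 1801 at 14 hours, and 2227 and 2072 at 24 hours. Medians over the 48 were -0.10, -0.14 and -0.10. Pmepa1, a feedback inhibitor and target of TGF-beta, had log2 fold changes at 24 hours of -1.89 with I-BET added to RANKL (adjusted p = 0.00277 by edgeR) and -3.71 with I-BET alone against untreated cells (adjusted p = 3e-05, and 0.000112 without untreated library 2). It thus moved opposite to Id3 when I-BET was added to RANKL.

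Ski, a repressor of SMAD activity, had 17.7 and 17.7 RPKM with RANKL plus I-BET at 24 hours and 8.52 and 8.51 with RANKL (log2 fold change 1.02, SE 0.0994, adjusted p = 4.79e-06). Among receptors and co-receptors, Eng (endoglin) fell by 2.13 (adjusted p = 5.78e-05) and Acvr2b, an activin receptor, by 1.25 (adjusted p = 1.96e-05), while the BMP receptor Bmpr1a had 0.35 (adjusted p = 0.012). Ltbp1, which binds latent TGF-beta, had 0 and 1 counts with RANKL plus I-BET at 24 hours and 136 and 32 with RANKL, and at 14 hours its 0 counts against 264 made it at least 62.9-fold lower at a floor of 3 counts over the group. Of the BMP carriers, Smad5 had 0.45 (adjusted p = 0.00487) and Smad1 -0.80 (adjusted p = 0.00707), and the ubiquitin ligase Nedd4l had -1.48 (adjusted p = 0.00318). The integrin Itgav had -1.55 (adjusted p = 0.00518), the target Klf11 1.0 (adjusted p = 0.0268) and the ligand Bmp8a, from 25 counts against 3, 2.61 (adjusted p = 0.014).

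Of these 24-hour calls, those of Itgav (adjusted p = 0.0691) and Nedd4l (0.0511) were lost without RANKL plus I-BET library 2. Smad1 (0.0652) and Bmp8a (0.113) were lost without RANKL library 1, Bmpr1a without RANKL library 1 (0.116) or RANKL plus I-BET library 2 (0.097), and Klf11 without RANKL library 2 (0.167) or RANKL plus I-BET library 1 (0.25) and with only that comparison's libraries (0.0809). In RANKL plus I-BET against I-BET, edgeR called 0 of the 48 at each hour, with 4, 8 and 8 at an unadjusted p under 0.05, 1, 2 and 0 by DESeq2 and 0 at each hour by limma on RPKM plus 1. Of all tested genes edgeR called 0.517%, 0.904% and 0.262% there, so 0 of 48 is near the share of all genes. In I-BET against untreated cells 5, 13 and 17 were called at 4, 14 and 24 hours, 3, 3 and 4 of them higher. These are 10.4%, 27.1% and 35.4% of the 48, against 10.5%, 13.7% and 17.7% of all tested genes. Without untreated library 2 the counts were 2, 12 and 12. Of the 3 tested genes of E proteins, Tcf3, Tcf4 and Tcf12, the partners of the ID proteins, edgeR called 0 at 24 hours when I-BET was added to RANKL, with 1 at an unadjusted p under 0.05 and 0 by DESeq2 and by limma on RPKM plus 1. Among all tested genes 26.8% were called there by edgeR, and 3 genes are too few to set against that share.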

How the data were processed

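RNA was sequenced in 20 libraries of RAW264.7 cells, 10 groups of 2. Per the labels' protocols, poly(A) RNA was made into NEBNext Ultra libraries and sequenced in pairs. Per the submitters' processing notes, the tools were FastQC, STAR 2.5.3a and DESeq2 1.16.1, on GRCm38 (mm10). Not given in the sources used here are the counting tool, strand setting and annotation. The authors deposited counts per gene and RPKM; the RPKM equal the counts over gene length and library total (largest relative deviation 1e-14), so they add no independent data. Symbols came from the file for 42745 genes, from GENCODE M21 for 7915, and 26 had none.

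Counts were fitted with edgeR 4.0.16 in R 4.3.3: TMM, filterByExpr (16042 genes), 1 mean per group, all 20 libraries in the fit with 10 residual degrees of freedom, quasi-likelihood F tests with robust estimation and Benjamini-Hochberg adjustment over all tested genes. A gene was called at an adjusted p under 0.05. There were 13 tested comparisons and 3 described ones. Members, lists and comparisons were chosen with earlier results of these data known. No test is given for RANKL against untreated cells, and no p-value for Tgfbi, Id1 and Smad6 where a comparison shares its libraries, though their calls enter the counts over the members. The scripts were tested on simulated data. Library totals set the precision; counting intervals are 95% exact and, like the floor of 3 counts over a group, cover counting error only.

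The rule for naming pathway genes took at most 2 called genes per list and direction with the largest log2 fold change; the text keeps those of 24 hours in RANKL plus I-BET against RANKL, a reduction made after values were seen. Same-numbered libraries deviated together in 45 of 45 pairs of groups (r 0.221 to 0.596, median 0.454), so the number pairs them; it enters an alternative as a replicate block, with a biological coefficient of variation of 0.0751 against 0.162 without it. Further alternatives were RLE size factors, no filter (29470 genes), fits on a comparison's own libraries, DESeq2 1.42.0, limma 3.58.1 on log2 RPKM with 1 or 0.1 added (genes reaching an RPKM of 1 in 2 or more libraries), and fits without each library in turn; a library left alone in its group is assumed to vary like the others. Figures were drawn with matplotlib 3.10.9. Some genes of the marker and pathway lists are not reported here by name.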

Additional observations from a re-analysis of the deposited data

Results flagged for a closer look

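The effect of adding I-BET to RANKL differed between 24 and 4 hours for 4 of 10 members (7.28% of all tested genes), by a test of the difference itself in edgeR. On the log2 scale the difference was 3.36 for Id1, 2.48 for Id3, 1.73 for Smad6 and 0.70 for Smad3, each higher at 24 hours. Id1 and Smad6 were selected for low RANKL values, so theirs are descriptions. That leaves Id3 and Smad3 as tested results. The Smad3 call was lost in edgeR without the filter (adjusted p = 0.0778) and with only those libraries (0.128), and in some fits with 1 library left out. At 24 hours Id1 rests on 3 and 4 RANKL counts. The osteoclast and macrophage marker sums differed between the same groups, and their part was not tested.

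For some members I-BET went with a higher level in both libraries with RANKL and a lower level in both libraries without it, on TMM-scaled CPM. This difference was not tested, because it contains the contrast of RANKL with untreated cells. The values without RANKL set I-BET against untreated cells of hour 0, so I-BET and time in culture cannot be told apart in them. At 4 hours Tgfbr2 had log2 fold changes of 0.45 with RANKL and -0.33 without it, a difference of 0.77, where the second did not pass (adjusted p = 0.0665 by edgeR). At 14 hours Tgfbr2 had 0.90 and -0.18, a difference of 1.08, where the second did not pass (adjusted p = 0.343) and its groups overlap in RPKM. Tgfbr1 at 14 hours had 0.26 and -1.23, a difference of 1.48, where the first did not pass (adjusted p = 0.437). At 24 hours Id3 had 3.15 and -0.65, a difference of 3.80, where the second did not pass (adjusted p = 0.135). Smad6 had 1.24 and -1.32 at 24 hours, a difference of 2.56, given as a description. Tgfbi had 2.56 and -4.10, a difference of 6.66, but with RANKL its 9 counts against 1 showed no difference detectable at this depth, and the size depends on the prior count of the fit.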

How the results depend on the processing

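The counts of members called moved by more than 1.5 times as follows, given by comparison. Calls over all genes moved with the setting too. When I-BET was added to RANKL for 4 hours, 1828 of 16042 genes were called in the main fit. The block called 4507 of 16042, DESeq2 2234 of 15727, and the fit on the comparison's own libraries 345 of 14945. RANKL plus I-BET against I-BET called 1 member at 4 hours, against 2 with the replicate block and 0 without the filter on low counts, with only the libraries of that comparison, in limma on RPKM plus 0.1 and with any 1 library left out (0 to 0). At 14 hours it called 0, against 1 without the filter, 1 by DESeq2 and 2 with the block, and at 24 hours 0, against 1 with the block. With only its own libraries, this comparison called 0 of 14478 genes at 4 hours, 0 of 13912 at 14 hours and 0 of 14187 at 24 hours. The 0 members in those fits therefore say nothing about the members in particular. Adding I-BET to RANKL called 1 at 4 hours, against 4 without the filter, 7 with the block, 0 with only its own libraries, 3 by DESeq2, 2 in limma on RPKM plus 1 and 0 to 2 with 1 library left out. I-BET against untreated cells at 4 hours called 1, against 2 with RLE factors, DESeq2 and both limma fits, 3 without the filter, 4 with the block, 0 with only its own libraries and 0 to 0 with 1 left out; at 14 hours it called 3, against 5 with the block, and at 24 hours 5, against 3 to 4 with 1 left out. From 4 to 24 hours I-BET called 6, against 10 with the block and 2 to 5 with 1 left out, and RANKL plus I-BET 7, against 4 with only its own libraries and 3 to 6 with 1 left out. The change in the RANKL response under I-BET called 0, against 1 without the filter and 2 with the block, and the change in the I-BET effect in RANKL cells 4, against 7 with the block.

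Of 1509 values of single members under an alternative to a tested comparison, 1332 kept direction and call, 65 lost and 58 gained a call, 54 changed sign without being called, and 0 turned the direction of a called value. Id1's change in the I-BET effect, 3.36, was 0.64 in limma on RPKM plus 1, where the added number shrinks low levels, and left the called members there. Smad6 left those called when I-BET was added to RANKL for 24 hours in the fit on its own libraries (1.22, against 1.24). The RPKM fits moved the median of all genes by -0.056 to 0.131 on the log2 scale, RLE factors by at most 0.025. The block ended no call in the members. With 2 libraries per group, and 0 to 5 counts for Tgfbi with RANKL or both agents at 24 hours, size estimates there are limited by depth.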
